A study of Homo sapiens with 8 samples.

Results

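Kinesins are motor proteins that walk along microtubules with energy from ATP. The family was taken as every protein-coding gene whose symbol is KIF or KIFC followed by a number and gave 42 of the 58233 genes in the deposited count table. The members were split by known role into 15 mitotic motors, 17 transport motors and 10 ciliary and other motors. CENPE and STARD9 are kinesins whose symbols do not follow this pattern. CENPE was kept apart as a partner gene.

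RNA-seq libraries were made from MCF10A-Hras cells. MCF10A is a line of human mammary epithelium that does not form tumours, here made to carry oncogenic H-Ras. The 4 groups were control cells labelled WT and RBM6-KO1 cells, each untreated or harvested 12 h after 5 Gy of ionizing radiation (IR) from an X-ray machine, with 2 replicates (A and B) per group. RBM6 is a splicing factor, and RBM6-KO1 is 1 clone cut with a Cas9 nickase in RBM6, so effects of the deletion and of the clone cannot be told apart. All groups carried the H-Ras oncogene and grew in medium with serum, EGF, hydrocortisone, cholera toxin and insulin.

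The libraries held between 15355281 and 29832009 counts, and 3 counts, the limit that a count of 0 allows, stood for 0.0965 to 0.204 CPM (counts scaled to a common library size, here called normalised CPM). RBM6 mRNA was at 66.8 and 68.7 normalised CPM in untreated control cells and 54.4 and 48.9 after IR, while RBM6-KO1 cells had 61.5 and 63.1 before and 33.9 (replicate B) and 43.96 (replicate A) after IR. The 2 untreated groups differed little, so total counts on the gene do not show the deletion. The line's label held, with 9 of 9 basal breast markers at a median above 1 CPM. Of 10 markers of blood, endothelium, fibroblasts and neurons, COL1A1, PECAM1 and RBFOX3 had a median over the libraries above 1 CPM, and the 10 summed to 16.6 to 18.9 CPM in untreated control, 16.0 to 16.6 in irradiated control, 15.6 to 17.3 in untreated RBM6-KO1 and 12.8 in both irradiated RBM6-KO1 libraries. In bulk RNA, fewer cells of a kind and less RNA per cell cannot be told apart, which applies to each level given here, dividing cells included.

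Mitotic kinesins build the spindle, move chromosomes and organise cytokinesis, and their mRNAs are known to peak in G2 and M phase. Transport kinesins carry vesicles, organelles and mRNPs, mostly toward the cell periphery, in dividing and resting cells alike. Many promoters of G2/M genes hold a CHR element, which the DREAM and MuvB complexes bind, together with CCAAT boxes, which NF-Y binds.

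RefSeq promoter windows (GRCh38.p14, 250 bases before to 50 after the start) were at hand for 34 of the 42 kinesins and searched on both strands for TTTGAA (CHR) and CCAAT. Matches to the 2 motifs can share no more than 1 end letter. TTTGAA stood in the window of 10 of 15 mitotic motors (66.7%), 1 of 12 transport motors (8.33%) and 0 of 7 ciliary and other motors, against 18.2% of the 27305 genes in the table. CCAAT stood in 11 of 15 mitotic (73.3%), 4 of 12 transport and 3 of 7 other motors, against 39.7% of all genes. Both motifs were found for 9 mitotic motors (60.0%) and for 1 transport motor, KIF5B, against 7.26% of all genes. With the 250 upstream bases alone, TTTGAA stood in 5 mitotic motors (33.3%, against 16.1% of all genes) and both motifs in 4 (26.7%, against 5.79%), since several matches lie just past the start. A match is a description of letters and not a site at which binding was measured.

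The stretches below belong to the 7 kinesins called in any comparison, with KIF11 and KIFC1 added as abundant mitotic motors. They do not stand for the whole class. Among those not printed, KIF2A has neither motif and KIF22 has CCAAT without TTTGAA. Capitals mark TTTGAA and CCAAT, or TTCAAA and ATTGG where the motif lies on the other strand. Each is written 5′ to 3′ on the gene's strand.

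KIF14 (chr1:200620737-200620886, minus strand, ending 15 bases after the start): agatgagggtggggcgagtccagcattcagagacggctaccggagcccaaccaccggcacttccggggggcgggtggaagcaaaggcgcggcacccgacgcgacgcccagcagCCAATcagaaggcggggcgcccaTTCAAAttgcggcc
KIF18B (chr17:44947759-44947908, minus strand, ending 15 bases after the start): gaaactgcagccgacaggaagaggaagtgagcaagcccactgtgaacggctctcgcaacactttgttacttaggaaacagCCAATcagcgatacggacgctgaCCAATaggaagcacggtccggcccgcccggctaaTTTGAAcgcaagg
KIFC1 (chr6:33391688-33391837, plus strand, ending 15 bases after the start): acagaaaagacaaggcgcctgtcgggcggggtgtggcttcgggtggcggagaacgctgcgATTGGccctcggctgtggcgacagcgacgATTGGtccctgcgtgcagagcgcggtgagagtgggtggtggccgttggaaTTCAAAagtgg
KIF20B (chr10:89701480-89701589, plus strand, ending at the base before the start): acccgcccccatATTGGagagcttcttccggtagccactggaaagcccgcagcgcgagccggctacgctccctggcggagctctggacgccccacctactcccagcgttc
KIF20B (chr10:89701599-89701628, plus strand, 30 bases ending 39 after): ccctggccgccattgTTTGAATTTGAAaac
KIF15 (chr3:44761684-44761793, plus strand, ending at the base before the start): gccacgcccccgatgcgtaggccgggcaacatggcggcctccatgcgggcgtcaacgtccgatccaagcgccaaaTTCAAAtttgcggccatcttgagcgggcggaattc
KIF11 (chr10:92593020-92593129, plus strand, ending at the base before the start): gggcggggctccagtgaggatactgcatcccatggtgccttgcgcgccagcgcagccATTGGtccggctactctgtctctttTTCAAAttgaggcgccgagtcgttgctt
KIF20A (chr5:138179002-138179111, plus strand, ending at the base before the start): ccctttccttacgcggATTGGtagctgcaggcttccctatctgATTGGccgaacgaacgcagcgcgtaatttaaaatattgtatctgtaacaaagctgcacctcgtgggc
KIF2C (chr1:44739727-44739836, plus strand, ending at the base before the start): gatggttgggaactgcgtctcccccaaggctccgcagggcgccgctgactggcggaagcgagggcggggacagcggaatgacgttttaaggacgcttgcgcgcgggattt
KIF5B (chr10:32056426-32056575, minus strand, ending at the base before the start): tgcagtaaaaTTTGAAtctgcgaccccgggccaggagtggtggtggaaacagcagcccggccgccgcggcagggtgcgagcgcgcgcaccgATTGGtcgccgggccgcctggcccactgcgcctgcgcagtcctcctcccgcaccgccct

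KIF14, KIF18B, KIFC1 and KIF11 show 1 TTTGAA match within 30 bases of the start, on either side of it, with CCAAT upstream. KIF20B carries a tandem pair of TTTGAA that starts 25 and 31 bases after the start. Its 2 CCAAT matches start 131 and 98 bases before the start, and the printed stretch holds only the nearer. KIF15 has TTTGAA without CCAAT, KIF20A has 2 CCAAT matches without TTTGAA, and KIF2C has neither in its window. In KIF5B, the only transport motor with TTTGAA, the match starts 140 bases before the start.

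Levels were compared between kinesins as RPKM, that is CPM per kilobase of exon. Mitotic and transport motors made up nearly equal shares of kinesin mRNA in untreated control cells, with 49.8% ± 0.341 (SD, n = 2) and 48.3% ± 0.0391 of the summed RPKM of the 42 genes. KIF5B, the ubiquitous kinesin-1 heavy chain, ranked first with a mean of 35.1 RPKM over the 8 libraries and a range of 17.0 to 68.3. KIF1C, which carries Golgi-derived vesicles and mRNAs, came next with 22.1 RPKM and the narrow range of 20.8 to 23.8. The ranges of these 2 motors overlap, so their order does not hold in every library.

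Among mitotic motors KIF2C, the centromeric microtubule depolymerase also known as MCAK, had a mean of 15.8 RPKM, KIFC1, which focuses spindle poles, 14.5, and KIF20A, a cytokinesis motor, 13.1. KIF18B, KIF11 and KIF22 followed with 7.92, 7.63 and 7.27 RPKM. KIF18B limits astral microtubules, KIF11 pushes spindle poles apart and KIF22 moves chromosome arms. The ranges of the mitotic motors over the 8 libraries overlap between neighbours in this order, so it is not firm.

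Below KIF5B and KIF1C, the transport motors KIF3B, a kinesin-2 subunit, and KIFC3, a minus-end motor, had means of 12.5 and 10.9 RPKM. KIF3A and KIF3C, also kinesin-2 motor subunits, had 6.08 and 5.83. With the longest transcript as the length, KIFC3 ranked second in the family. Ciliary and other motors were low, led by KIF7, a regulator of Hedgehog signalling in the cilium, with 2.46 RPKM, KIF24, which restrains cilium assembly, with 0.973, and KIF9, an axonemal motor, with 0.798.

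Of the 42 members, 31 passed the filter on low counts in all 4 pairwise comparisons and 2 (KIF5C and KIF26B) in some, with at most 20 and 46 counts in a library. KIF2B, KIF12, KIF19 and KIF25 had no count in any library. KIF4B, a near-identical retrocopy of KIF4A with which it may share reads, KIF17, KIF5A, KIF1A and KIF26A had at most 8 counts in a library. The neuronal motors KIF1A, KIF5A and KIF17 and the testis motor KIF2B thus stood at or near the detection limit in these epithelial cells. Other genes together overlap 21.3% of the exon bases of KIF2A (mainly DIMT1), 17.8% of KIF9 (mainly KIF9-AS1), 17.8% of KIFC2 (FOXH1) and 14.0% of KIFC1 (RPL12P1), and each gene named here lies on the opposite strand. The counting was not stated to use strand, so reads in these parts cannot be told apart.

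**Figure D1:**
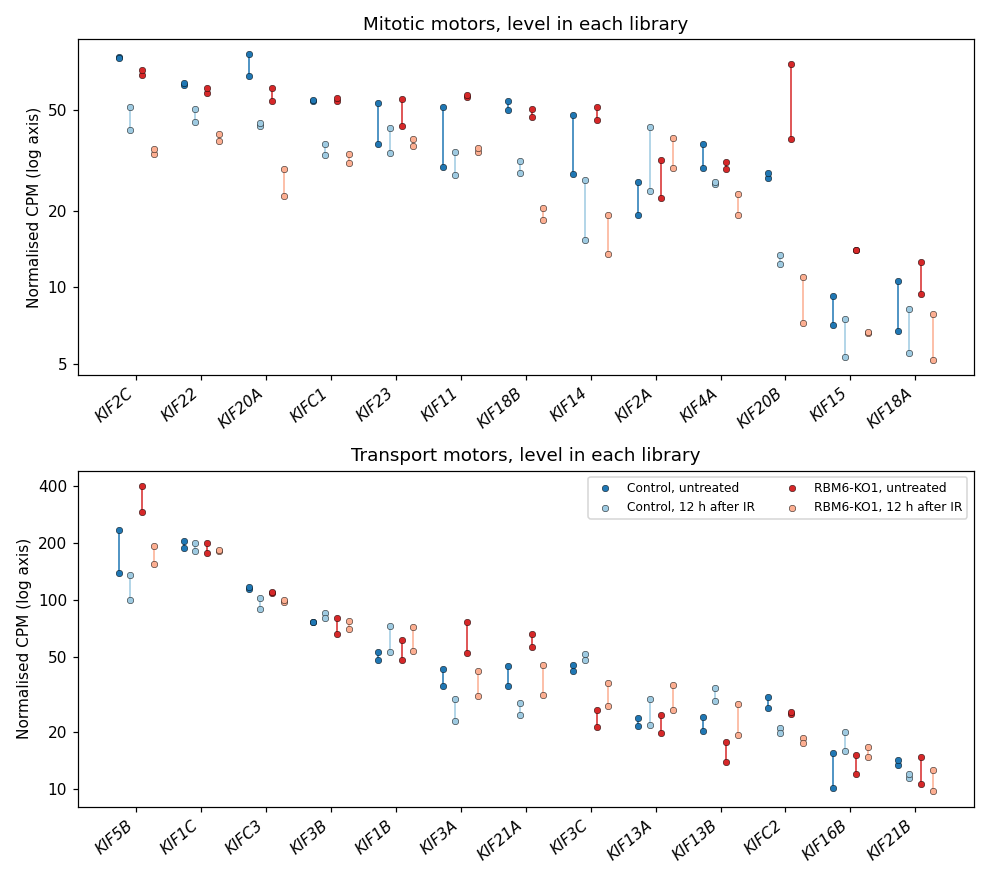
Normalised CPM (log axis) of the 13 mitotic and 13 transport motors tested in every comparison, with 1 point per library and a line joining replicates A and B of a group. Most mitotic motors lie lower after IR in both genotypes, KIF20B spans the widest range of its class, and KIF1C stays between 178 and 204 normalised CPM.

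The first comparison asked which kinesins respond to IR in control cells. Calls needed both an adjusted p (edgeR's quasi-likelihood test, Benjamini-Hochberg over all genes tested) under 0.05 and a change of 2-fold or more. Of the 32 kinesins tested, 1 was called, the mitotic motor KIF20B, which was lower after IR (background of 3.59% of all genes called and 1.91% called lower). KIF20B, which acts in the midzone during cytokinesis, had 26.9 and 28.2 normalised CPM before and 12.3 and 13.3 after IR. Its log2 fold change was -1.11 (SE 0.21, adjusted p = 0.0154 from edgeR). The call was lost without replicate B of untreated control cells (-1.07, adjusted p = 0.0934) and with all 8 libraries in 1 fit (-1.10, adjusted p = 0.0628).

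By the adjusted p alone, 4 of the 13 mitotic motors tested and 0 of the 13 transport motors tested fell in control cells, with 2.91% of all genes lower by this rule. KIF2C had 80.3 and 79.9 normalised CPM before and 51.0 and 41.7 after IR, a log2 fold change of -0.80 (SE 0.18, adjusted p = 0.0264 from edgeR). KIF20A had 82.6 and 67.7 before and 43.1 and 44.2 after, a change of -0.79 (adjusted p = 0.0278). KIF18B had 53.8 and 49.7 before and 31.3 and 28.2 after, a change of -0.81 (adjusted p = 0.0305). In each of these 3 motors the groups did not overlap, and the adjusted p exceeded 0.05 without either replicate of untreated control cells.

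As a class, the mitotic motors stood at a median of -0.42 (log2) after IR in control cells. Of the 13, 12 were below 0 and 8 had groups that did not overlap. The median over all genes tested was 0.02, and 57.1% of all genes had groups that did not overlap. KIF14, with 47.8 and 28.0 normalised CPM before and 15.3 and 26.5 after, was at -0.86 (adjusted p = 0.105), and passed when either B library, untreated (-1.19) or irradiated (-1.31), was left out. KIF2A, a depolymerase that also works outside mitosis, was the member above 0, with 0.55 (SE 0.27, adjusted p = 0.232 from edgeR). Transport motors had a median of -0.06, 7 of them below 0. Groups did not overlap for 4 transport motors that were higher and 6 that were lower. Their values spread from -0.68 for KIF5B (adjusted p = 0.106) to 0.52 for KIF13B, a vesicle motor (adjusted p = 0.152). KIF5B passed the adjusted p of 0.05 in 5 of 11 alternative fits, against 4 of 11 for KIF14 and 5 of 11 for the mitotic motor KIFC1. The absence of transport motors among those that fell in control cells thus depends on the fit.

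In RBM6-KO1 cells, 7 of the 32 kinesins tested were called after IR, 7 of them lower and 0 higher, against 3.11% of all genes called and 1.97% called lower. They comprised 6 of the 13 mitotic motors tested (KIF20B, KIF14, KIF18B, KIF20A, KIF15 and KIF2C) and 1 of the 14 transport motors tested (KIF5B). By the adjusted p alone, KIFC1, KIF11 and KIF22 joined as lower, giving 9 mitotic motors and KIF5B (3.23% of all genes lower by this rule).

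KIF20B (ENSG00000138182, chromosome 10) went from 38.2 and 75.3 normalised CPM before IR to 10.9 and 7.24 after it in these cells. These were the highest and the lowest pair of libraries for this gene in the experiment. Its log2 fold change was -2.66 (SE 0.32, adjusted p = 0.00633 from edgeR). The size rested in part on 1 library, being -2.08 when replicate B before IR was left out, but the call held in each alternative fit.

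KIF14 (ENSG00000118193, chromosome 1), which with citron kinase completes abscission, had 51.4 and 45.7 normalised CPM before and 19.3 and 13.6 after IR, a change of -1.58 (SE 0.21, adjusted p = 0.0079). KIF18B had 50.4 and 46.6 before and 20.5 and 18.4 after, a change of -1.33 (SE 0.17, adjusted p = 0.0075). KIF20A had 61.0 and 54.0 before and 22.8 and 29.2 after, a change of -1.16 (SE 0.18, adjusted p = 0.0153 from edgeR). For these 3 motors both irradiated libraries lay well below both untreated ones.

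KIF15, a second spindle motor beside KIF11, had 14.1 and 14.0 normalised CPM before and 6.60 and 6.65 after IR, a change of -1.10 (SE 0.20, adjusted p = 0.0229 from edgeR). KIF2C had 68.4 and 71.3 before and 33.3 and 34.9 after, a change of -1.05 (SE 0.15, adjusted p = 0.0125). Replicates of KIF15 and KIF2C lay close together in both groups. Without replicate A of irradiated RBM6-KO1 cells, KIF20A (-0.98) and KIF2C both came in just under the 2-fold limit.

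The 3 mitotic motors past the adjusted p alone were KIFC1 with -0.79 (adjusted p = 0.0297 from edgeR), KIF11 with -0.72 (adjusted p = 0.0352) and KIF22 with -0.63 (adjusted p = 0.0479). KIF11 and KIF22 each passed in 7 of 11 alternative fits. KIF18A (-0.78), which damps chromosome movements, KIF4A (-0.53), a midzone motor, and KIF23 (-0.42), a subunit of centralspindlin, did not pass, with adjusted p-values from 0.0963 to 0.147. KIF2A was at 0.31 (adjusted p = 0.362) and its groups overlapped. The median of the mitotic class was -0.79 on the log2 scale, and 12 of its 13 members were below 0 and 12 had groups that did not overlap, against -0.01 and 62.1% over all genes.

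Among transport motors KIF5B stood at 290 and 401 normalised CPM before IR in RBM6-KO1 cells and at 192 and 156 after it, so both irradiated libraries were lower. The drop was 2.004-fold (SE 0.19 on the log2 scale, adjusted p = 0.0250 from edgeR), at the limit for a call, and 6 of the alternative fits did not call it. Leaving out replicate B before IR gave -0.75 (adjusted p = 0.0684), and leaving out replicate B after IR gave -0.84 (adjusted p = 0.0360). The transport class had a median of -0.04, 8 of its members being below 0. Groups did not overlap for 4 members that were higher and 5 that were lower.

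Transport motors differed among themselves in both genotypes. KIF3A, KIF21A and KIFC2 were at -0.83, -0.69 and -0.50 in RBM6-KO1 cells and at -0.57, -0.60 and -0.51 in control cells, while KIF13B was at 0.56 and 0.52. None of these 8 values passed the adjusted p of 0.05. In RBM6-KO1 cells, though, KIF3A passed it in 5 of 11 alternative fits and KIF21A in 4. In control cells each passed it in 1 of 11. KIF1C was at -0.07 and -0.06, with levels from 178 to 204 normalised CPM in all 8 libraries. KIF3B ranged from 66.5 to 85.6 and KIFC3 from 89.96 to 117 normalised CPM. The other vesicle motors ranged from 48.2 to 72.8 for KIF1B, 19.8 to 35.7 for KIF13A, 10.2 to 20.0 for KIF16B and 9.74 to 14.8 for KIF21B.

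**Figure D2:**
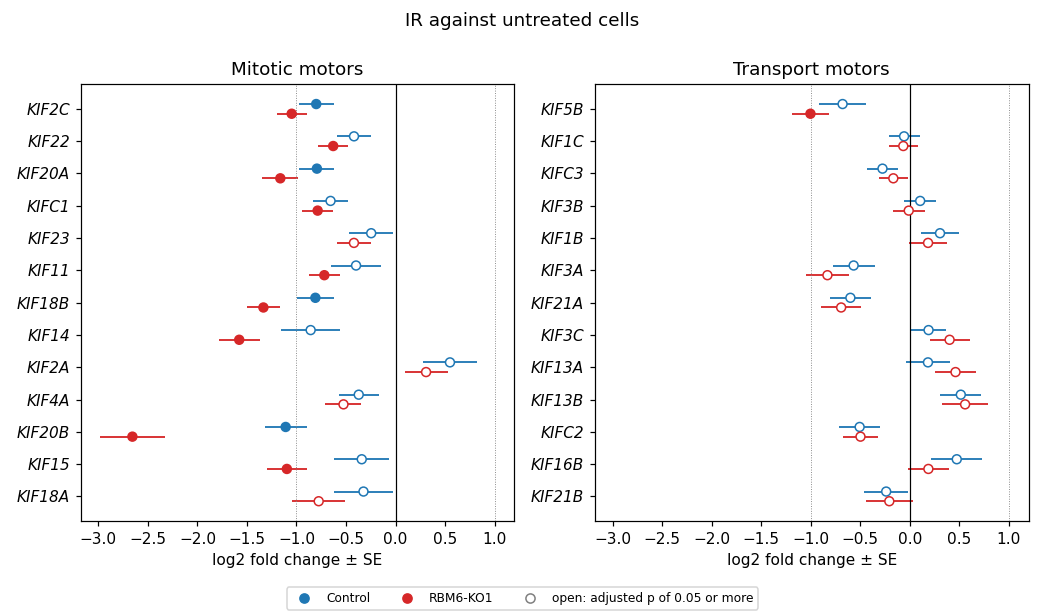
Log2 fold change after IR with its standard error for 13 mitotic and 13 transport motors in control (blue) and RBM6-KO1 (red) cells. Filled points have an adjusted p under 0.05, and dotted lines mark a 2-fold change. Mitotic motors other than KIF2A lie left of 0 in both genotypes, from -0.25 to -1.11 in control and -0.42 to -2.66 in RBM6-KO1 cells, while transport motors lie on both sides of 0.

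The share of mitotic motors in summed kinesin RPKM followed these changes. In control cells it went from 50.1% and 49.6% untreated to 43.5% and 42.6% after IR. In RBM6-KO1 cells it went from 47.1% and 42.8% to 35.8% and 37.3%. Both irradiated libraries were below both untreated ones in each genotype. The shares are given as a description, with no test.

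**Figure D3:**
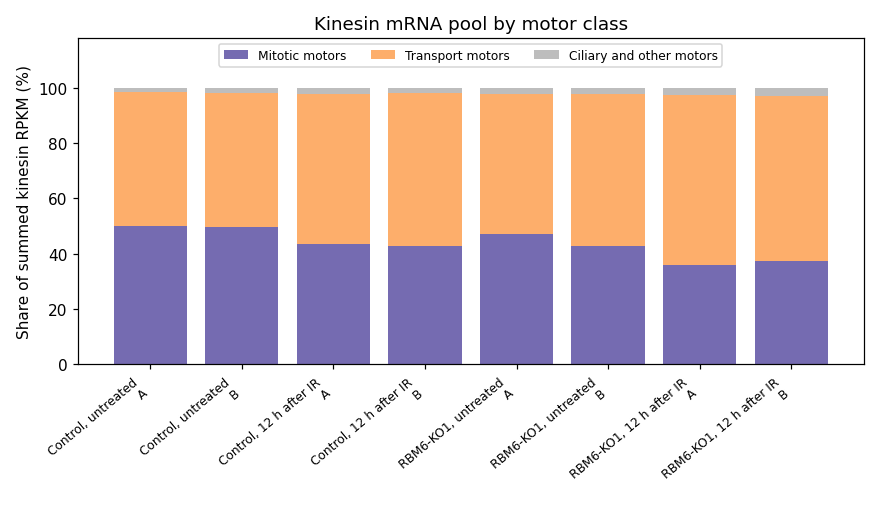
Share of the summed RPKM of the 42 kinesins in mitotic, transport and ciliary or other motors, 1 stacked bar per library. The mitotic share was 49.6% to 50.1% in untreated and 42.6% to 43.5% in irradiated control cells. In RBM6-KO1 cells it was 42.8% to 47.1% untreated and 35.8% to 37.3% irradiated. Ciliary and other motors stayed between 1.62% and 2.91%.

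Whether the IR response itself differed between genotypes was tested as an interaction over all 8 libraries. None of the 33 kinesins tested passed, as for the 16549 genes tested in all (0% called, adjusted p near 1). Without a filter on low counts KIF20B did pass (-1.57, adjusted p = 0.0121 from edgeR), and with DESeq2 it did not. At an unadjusted p under 0.05, which 1.85% of all genes met, were 3 kinesins, KIF20B (-1.54, SE 0.42, unadjusted p = 0.00378 from edgeR), KIF18B (-0.52, SE 0.22, unadjusted p = 0.0366) and KIF15 (-0.75, SE 0.33, unadjusted p = 0.0418). All 3 are mitotic motors with a larger drop in RBM6-KO1 cells. The interaction was below 0 for 13 of 13 mitotic motors, from -0.12 for KIFC1 to -1.54 for KIF20B, with a median of -0.32, and for 7 of 14 transport motors, with a median of 0.01. Over all genes 51.3% were below 0 and the median was -0.01. The sign was not particular to the motors. Below 0 were 16 of 17 genes that work with mitotic kinesins (median -0.21) and 13 of 14 proliferation and cell cycle transcription genes (median -0.24). A larger drop of the mitotic motors in RBM6-KO1 cells was therefore not shown for any single motor. Leaving out replicate A of untreated control cells moved the mitotic median to -0.51 and leaving out replicate B to -0.22. In replicate A, 10 of 13 mitotic motors were higher than in replicate B, and the median gap was 0.31 on the log2 scale.

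In untreated cells, the comparison of RBM6-KO1 with control cells called 1 of 32 kinesins, KIF20B as higher, near the background of 3.12% of all genes called (1.16% called higher). The levels are those given above, with 26.9 and 28.2 normalised CPM for control and 38.2 and 75.3 for RBM6-KO1. The log2 fold change was 1.02 (SE 0.23, adjusted p = 0.00995 from edgeR). Leaving out RBM6-KO1 replicate B gave 0.47 (adjusted p = 0.190), and leaving out control replicate A gave 0.99, just under 2-fold. With all 8 libraries in 1 fit the adjusted p was 0.0899. This comparison shares the untreated RBM6-KO1 libraries with the IR comparison in that genotype, so the high replicate B enters both.

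By the adjusted p alone, 7 of 32 kinesins passed, 6 higher and 1 lower, where 6.12% of all genes passed, 2.38% higher and 3.73% lower. The higher ones were KIF20B and KIF15 among mitotic motors, KIF5B, KIF3A and KIF21A among transport motors, and KIF7. The lower one was KIF3C. In the mitotic class 6 of 13 motors, 3 higher and 3 lower, had groups that did not overlap, against 47.7% of all genes, and its median log2 fold change was 0.12. The transport class had a median of -0.06. By the adjusted p alone, 3 of its members were higher and 1 was lower. Groups did not overlap for 3 of its members that were higher and 4 that were lower.

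KIF3C, a kinesin-2 motor that pairs with KIF3A, had 41.9 and 45.3 normalised CPM in untreated control cells and 26.3 and 21.4 in untreated RBM6-KO1 cells, so both RBM6-KO1 libraries were lower. Its log2 fold change was -0.88 (SE 0.18, adjusted p = 0.0047 from edgeR), and it stayed past the adjusted p in all 11 alternative fits. KIF3A, its partner subunit in kinesin-2, went the other way, with 43.1 and 35.0 in control and 52.3 and 76.98 in RBM6-KO1 cells (0.71, SE 0.18, adjusted p = 0.0264). KIF3B, which also pairs with KIF3A, was at -0.08 (adjusted p = 0.850) and its groups overlapped. The genes of chromosome 20, which holds KIF3B, were at a median of -0.27 here.

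KIF5B had 235 and 139 normalised CPM in untreated control and 290 and 401 in untreated RBM6-KO1 cells and its groups did not overlap, although the control replicates lay apart. Its log2 fold change was 0.87 (SE 0.20, adjusted p = 0.0119 from edgeR), and DESeq2 gave an adjusted p of 0.354. KIF21A, which also curbs microtubule growth, had 45.0 and 35.1 in control and 56.3 and 66.0 in RBM6-KO1 cells (0.60, adjusted p = 0.0428). Without replicate B of untreated control cells KIF5B (0.56, adjusted p = 0.334), KIF3A (0.58, adjusted p = 0.243), KIF21A (0.44, adjusted p = 0.518) and KIF15 (0.60, adjusted p = 0.355) no longer passed. KIF3A and KIF21A also fell short when RBM6-KO1 replicate B was left out.

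KIF7 had 9.56 and 12.6 normalised CPM in untreated control and 19.5 and 20.3 in untreated RBM6-KO1 cells, a change of 0.82 (SE 0.21, adjusted p = 0.0237 from edgeR) that was lost when control replicate A was left out (0.64, adjusted p = 0.160). After IR it had 8.21 and 7.36 in control and 14.7 and 14.7 in RBM6-KO1 cells, so the RBM6-KO1 libraries were higher at both times. KIF7 shares 10.8% of its exon bases with TICRR on the opposite strand. KIF15 had 9.26 and 7.07 in control and 14.1 and 14.0 in RBM6-KO1 cells (0.77, SE 0.22, adjusted p = 0.0495), a value at the threshold that 5 of 11 alternative fits kept, and for which DESeq2 gave an adjusted p of 0.110. KIF24, KIF9 and KIF27, with levels from 4.18 to 7.73, 3.28 to 6.11 and 2.20 to 4.42, did not pass, nor did KIF6, which had at most 32 counts in a library.

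After IR, edgeR called 0 of 33 kinesins between the genotypes, and 0 by the adjusted p alone, where 1.17% and 1.21% of all genes passed. At an unadjusted p under 0.05 were 7 kinesins, where 11.1% of all genes were. DESeq2 called 0 of them as well. The mitotic class had a median of -0.27, with 10 of 13 below 0, and 7 with groups that did not overlap, 6 of them lower in RBM6-KO1 cells (38.7% of all genes). KIF20A had 43.1 and 44.2 in control and 22.8 and 29.2 in RBM6-KO1 cells (-0.74, SE 0.20, adjusted p = 0.168 from edgeR), and KIF18B 31.3 and 28.2 against 20.5 and 18.4 (-0.60, SE 0.19, adjusted p = 0.263). KIF20B had 12.3 and 13.3 against 10.9 and 7.24 (-0.49, adjusted p = 0.574). None of these differences passed.

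KIF3C was at 48.1 and 52.0 in irradiated control and 27.5 and 36.3 in irradiated RBM6-KO1 cells (-0.64, SE 0.20, adjusted p = 0.252), and KIF7 at 0.93 (SE 0.21, adjusted p = 0.103 from edgeR). KIF5B was at 0.57 (adjusted p = 0.347). The transport motors divided evenly about 0, 7 on each side, and their median was -0.02. Groups did not overlap for 4 of them that were higher and 4 that were lower.

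**Figure D4:**
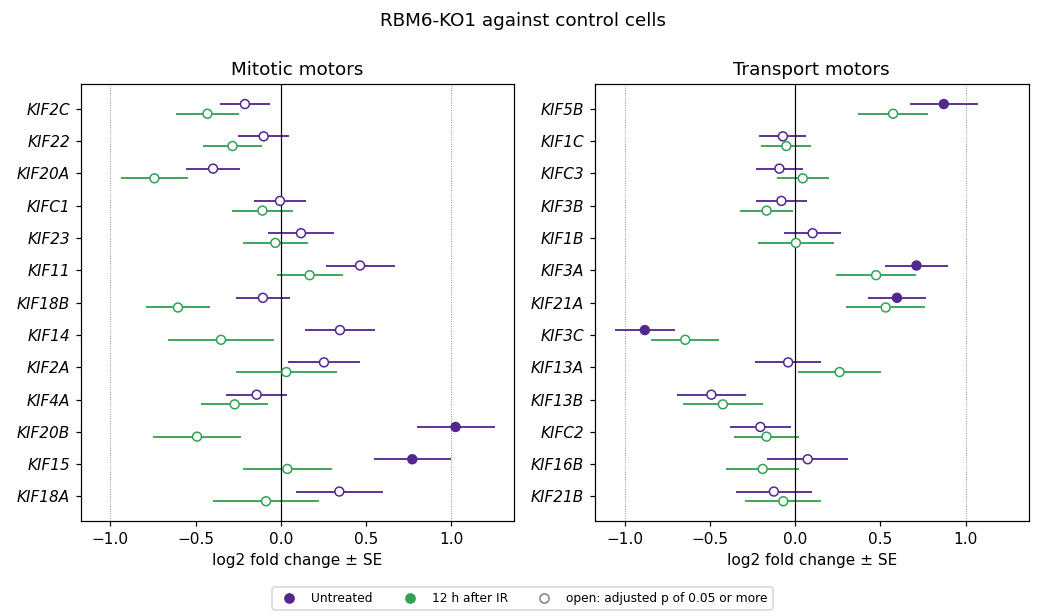
Log2 fold change of RBM6-KO1 against control cells with its standard error, untreated (purple) and 12 h after IR (green), for 13 mitotic and 13 transport motors. Filled points have an adjusted p under 0.05. Filled purple points are KIF20B and KIF15 among mitotic motors and KIF5B, KIF3A, KIF21A (right) and KIF3C (left) among transport motors, and no green point is filled.

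GC-rich genes tended to lower log2 fold changes in all 4 pairwise comparisons. Spearman's rho was from -0.31 to -0.24 across genes, which are not independent. KIF20B has the lowest GC content of the family, 34.3%, while KIF3C has 55.5% and KIF7 63.9%. After subtraction of the GC trend, which was chosen with the values known, KIF20B was at 0.78 in untreated RBM6-KO1 against control cells, KIF5B at 0.72, KIF3A at 0.53 and KIF21A at 0.50, while KIF7 was at 0.93 and KIF3C at -0.80. After IR, KIF20B was then at -1.23 in control and -2.82 in RBM6-KO1 cells. The part of GC content in these changes was not tested.

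Of 17 genes that work with mitotic kinesins, 3 were called lower after IR in control cells (1.91% of all genes), namely PLK1 (-1.23, adjusted p = 0.00388 from edgeR), BIRC5 (-1.15, adjusted p = 0.00691) and CENPE (-1.27, adjusted p = 0.0143), with a median of -0.26. PLK1 is a mitotic kinase, BIRC5 a subunit of the chromosomal passenger complex and CENPE a chromosome-aligning kinesin. In RBM6-KO1 cells 5 of the 17 were called lower (1.97% of all genes), with the smallest p for PLK1 (-1.43, adjusted p = 0.00373), BIRC5 (-1.50, adjusted p = 0.00549) and AURKB (-1.23, adjusted p = 0.0168), the kinase of that complex, and the median was -0.63. CENPE had 17.7 and 20.7 normalised CPM in control cells before and 7.18 and 8.75 after IR. The RBM6-KO1 libraries held 19.6 and 32.3 before and 7.88 and 3.03 after IR. None of the 17 was called between genotypes, untreated (3.12% of all genes called) or after IR (1.17%). In untreated cells the smallest p for higher values were those of HMMR, a spindle protein (0.79, adjusted p = 0.0293), CENPE (0.41, adjusted p = 0.345) and ANLN (0.33, adjusted p = 0.461).

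Of 14 proliferation and cell cycle transcription genes, 0 were called after IR in control cells (3.59% of all genes) and 3 in RBM6-KO1 cells (3.11% of all genes), MKI67 (-1.50, adjusted p = 0.0022 from edgeR), TOP2A (-1.41, adjusted p = 0.0075) and E2F1 (-1.36, adjusted p = 0.0120). By the adjusted p alone, in control cells 4 fell (2.91% of all genes) and 1, PCNA (0.86, adjusted p = 0.0216), rose (2.81% of all genes), and E2F1 was higher in untreated RBM6-KO1 than control cells (0.64, adjusted p = 0.0459). TOP2A came next there (0.60, adjusted p = 0.0856). MKI67 ranged from 164 to 284 normalised CPM in untreated libraries of both genotypes and from 96.1 to 124 after IR. After IR, 9 of the 14 genes were below 0 and 5 above in each genotype, with medians of -0.19 in control and -0.51 in RBM6-KO1 cells, and the mitotic kinase gene CDK1 was at 0.18 and 0.09. The part of the number of dividing cells in the levels of the mitotic motors was not tested.

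Of 15 light chains and cargo adaptors of transport motors, 0 were called in any of the 4 pairwise comparisons by edgeR, in which 1.17% to 3.59% of all genes were called. By the adjusted p alone, TRAK2, a mitochondrial adaptor, was higher in untreated RBM6-KO1 cells (0.81, adjusted p = 0.0179) and MAPK8IP3, an adaptor of kinesin-1, was lower after IR in control cells (-0.71, adjusted p = 0.0302). Among the next by p, all after IR in RBM6-KO1 cells, were RHOT1 (0.65, adjusted p = 0.0858) above 0 and RHOT2 (-0.50, adjusted p = 0.0913) and KLC1 (-0.47, adjusted p = 0.0923) below it. Cytoplasmic dynein and dynactin move cargo the other way. By the adjusted p alone, 6.12% of all genes passed between untreated genotypes and 1.21% between irradiated ones. After IR, 2.81% were higher and 2.91% lower by this rule in control cells, and 3.23% lower in RBM6-KO1 cells. Of the 19 genes of dynein, dynactin and their regulators, NDE1 among the last, 0 were called or passed the adjusted p in any of the 4 pairwise comparisons. The smallest p were those of NDE1 (-0.61, untreated RBM6-KO1 against control, adjusted p = 0.0587), DYNLRB1 and DYNLT1 below 0 and DYNC1H1 (0.63, IR in control cells, adjusted p = 0.0554), DCTN4 and DYNC1I1 above 0.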

How the data were processed

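The authors made TruSeq mRNA libraries (paired-end reads), aligned the reads to hg38 with STAR per the submitters' processing notes, and deposited raw counts per Ensembl gene as whole numbers. The counting tool, annotation and strandedness are not given in the sources used here. Members, classes, gene lists and tests were chosen with earlier results of these data known.

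Gene symbols came from GENCODE v44 (57392 of 58233 identifiers). Counts were analysed with edgeR 4.0.16 in R 4.3.3 (TMM, filterByExpr, glmQLFTest), each pairwise comparison on its own 4 libraries and the interaction on all 8, with Benjamini-Hochberg adjustment over all genes tested. A call needed an adjusted p under 0.05 and at least a 2-fold change. Normalised CPM used TMM library sizes, and RPKM used the union of exons. The scripts were tested on simulated data. Named kinesins were those called in a comparison, those with an unadjusted interaction p under 0.05, and the most abundant per class (6 mitotic, 6 transport and 3 other), with the rest named once. Of each partner list, called genes were counted and the 3 with the smallest p over the 4 pairwise comparisons in each direction named, except 1 gene that is not reported here. The values of CENPE and CDK1 after IR were added once seen. Alternatives were DESeq2 1.42.0, its size factors, upper-quartile factors, other filters, all 8 libraries in 1 fit, a replicate block, each library left out, other class members and other promoter windows. A GC correction was added after the data were seen. Protein sequences were not used here. The replicates are called biological by the study. The p-values rest on the spread between 2 libraries per group, which edgeR draws toward a trend shared by all genes. They thus do not measure the replicate spread of each gene alone. Limits from counts cover counting error only.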

Additional observations from a re-analysis of the deposited data

Results flagged for a closer look

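The difference of KIF20B between RBM6-KO1 and control cells had opposite signs before and after IR, and the one after IR did not pass (-0.49, adjusted p = 0.574 from edgeR). Both untreated RBM6-KO1 libraries were above both untreated control libraries, and both irradiated RBM6-KO1 libraries were below both irradiated control libraries. Over all genes, 47.7% and 38.7% had groups that did not overlap in these comparisons. The difference was tested as the interaction of genotype and IR, which was -1.54 on the log2 scale (SE 0.42, unadjusted p = 0.00378 from edgeR's quasi-likelihood test) and did not pass after adjustment over 16549 genes. Leaving out a library of untreated RBM6-KO1 cells gave -0.99 (replicate B) or -1.95 (replicate A). With 2 libraries per group, no test for a single outlying library was made.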

How the results depend on the processing

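Of the 62 recomputed numbers of called kinesins, 51 stayed within 1.5 times the reported number. In untreated RBM6-KO1 against control cells the number was 0 with all 8 libraries in 1 fit, 0 with the replicate block (KIF20B at 0.96, under 2-fold), 7 with the adjusted p alone, and 0 to 3 with each library left out. For IR in control cells it was 0 with all 8 libraries in 1 fit, 4 with the adjusted p alone and 1 to 2 with a library left out. The interaction gave 1 without a filter on low counts. The median of the transport motors after IR in control cells, near 0, was -0.10 with upper-quartile factors, -0.0080 without a filter, 0.11 without KIF21A and KIF21B, 0.0064 with the GC trend removed and -0.20 to 0.0042 with a library left out, and that in RBM6-KO1 cells was 0.087 without KIF21A and KIF21B. With a library left out, the mitotic median ran from -0.038 to 0.41 between untreated RBM6-KO1 and control cells, -0.33 to -0.17 between irradiated ones, -0.64 to -0.44 for IR in control cells, -0.98 to -0.73 for IR in RBM6-KO1 cells and -0.51 to -0.22 for the interaction. The transport median then ran from -0.11 to 0.11 between untreated and -0.089 to 0.083 between irradiated groups. With upstream bases alone, 33.3% of mitotic motors held TTTGAA and 26.7% both motifs. The other 117 of 136 class medians kept within their spread. The replicate letters share only a name. Differences of A and B correlated between groups from -0.28 to 0.35, so the block fit was not taken as paired. The causes of these shifts were not tested. With 2 libraries per group, dropping 1 leaves a lone library assumed to vary like the others. KIF6, KIF5C and KIF26B had too few counts for firm values.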
